A study of Mus musculus with 8 samples.

Results

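RNA of centrocytes from mice with 1 intact copy of Smarca4 was compared with RNA of centrocytes from wild type mice, in 4 of the 8 bulk RNA sequencing libraries of the study. Both libraries labelled CC and Smarca4+/- were set against both labelled CC and Smarca4+/+, over all genes. The other 4 libraries were the CB fraction of the same genotypes. CC and CB are read here as centrocytes and centroblasts. All libraries came from the spleens of C57BL/6 mice aged 8 to 10 weeks, taken on day 10 after immunization, and germinal centre B cells had been enriched with a magnetic bead kit based on peanut agglutinin (PNA), a lectin that binds them. The antigen, the way in which the allele was deleted, the cells that carry the deletion, the pooling of animals and the markers that separated CC from CB were not given in the sources used here. Each genotype had 2 CC libraries, and no label names the animals behind them. Each p below therefore sets a difference only against how far libraries of 1 group lay apart. The tests moderate that spread across genes, and part or all of it may be technical.

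Smarca4 (Brg1) is a catalytic subunit of the SWI/SNF (BAF) complexes, which use ATP to move or evict nucleosomes and so alter access to DNA. Centrocytes are the B cells of the light zone of the germinal centre. There they test their B cell receptor on antigen held by follicular dendritic cells, present antigen to T follicular helper cells on MHC class II, and then die, return to the dark zone to divide, or leave as memory B cells or plasma cells.

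The CC libraries were shallow. Their total counts were 526353 and 589802 in Smarca4+/+ and 676852 and 837558 in Smarca4+/-, against 18357578 to 24341805 in the CB libraries. For this reason counts stand below beside CPM, the counts scaled to 1000000 of the library's effective size, Smarca4+/+ always before Smarca4+/- and replicate 1 before replicate 2. Between 85.3% and 91.4% of the counts from 1 to 9 were even numbers, so a read pair is taken here as 2 counts. A floor of 6 counts over both libraries of a group then stands for 3 read pairs, which is 5.57 CPM in Smarca4+/+ and 4.10 CPM in Smarca4+/-. It covers counting error only. The share of counts in 2 genes at the ribosomal RNA locus ran from 18.3% to 26.7%, and the share in the mitochondrial genome from 2.24% to 5.86%. Pearson's r between libraries over genes on the log2 scale was 0.756 within Smarca4+/+, 0.802 within Smarca4+/- and 0.742 to 0.766 between genotypes. Smarca4+/- replicate 2 was closer to each Smarca4+/+ library (0.766 and 0.760) than these were to each other, so the libraries did not group by genotype on this measure. Genes, over which these r were taken, are not independent replicates.

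The germinal centre B cell marker list summed to 4569.9 and 4753 against 4064 and 5464 CPM and all 13 of its members had enough counts to be tested. Bcl6, the transcriptional repressor that defines the germinal centre programme, had 171 and 289 against 346 and 463 counts, and Cd83, a light zone marker, had 100 and 157 against 176 and 301 counts. RNA of other cells was present as well. Cd3e of T cells had 28 and 60 against 26 and 6 counts, and C1qa of macrophages had 114 and 144 against 172 and 74 counts.

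Smarca4 itself (ENSMUSG00000032187.16, mm10 chr9:21616169-21704230, plus strand) had 180 and 193 counts in the Smarca4+/+ libraries and 183 and 262 in the Smarca4+/- libraries, or 351 and 341 against 268 and 336 CPM. The ranges did not overlap, with Smarca4+/- below, but by a narrow margin. The mean was 346 ± 6.87 CPM against 302 ± 47.9 (SD, n = 2), and the log2 fold change of -0.20, SE 0.27, had an adjusted p of 0.969 in edgeR's quasi-likelihood test. The ratio of the means was 1.15. The deleted exons are not stated, and gene-level counts from outside them check nothing. In CB the log2 fold change was -0.40, SE 0.11, with an unadjusted p of 0.00293 and an adjusted p of 0.694.

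Of 29 SWI/SNF genes, 24 were tested in CC and none passed. Log2 fold changes were positive in 11 and negative in 13, with a median of -0.05 that turned to 0.03 among genes with at least 50 counts in 2 libraries. Smarca2, the other ATPase of these complexes, had 59 and 66 counts in the Smarca4+/+ libraries and 23 and 64 in the Smarca4+/- libraries (115 and 117 against 33.7 and 82.0 CPM). Smarca4+/- replicate 1 was low and replicate 2 lay nearer to the Smarca4+/+ libraries (log2 fold change -0.99, SE 0.50, adjusted p = 0.852). Arid1a, the large subunit that defines the canonical BAF complex, stood at 673 and 692 against 553 and 594 CPM (log2 fold change -0.25, SE 0.24).

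Over all genes, 7516 were tested in CC. In edgeR's quasi-likelihood test with Benjamini-Hochberg adjustment, 0 genes were higher in Smarca4+/- and 2 were lower, Igha and Ighv1-42 (0.0266% of genes tested). At an unadjusted p under 0.05 stood 449 genes (5.97%), 238 higher (3.17%) and 211 lower (2.81%). DESeq2 called 14 higher and 16 lower, and limma-voom called 0 and 2. Without overlap between the groups, 1441 genes were above (19.2%) and 1357 below (18.1%) in Smarca4+/-. Log2 fold changes were positive in 3788 genes and negative in 3728, with a median of 0.01. With 1 library left out, edgeR called 30 higher and 19 lower without Smarca4+/+ replicate 1, 19 and 13 without Smarca4+/+ replicate 2, 9 and 41 without Smarca4+/- replicate 1, and 5 and 12 without Smarca4+/- replicate 2. The lone library of a group was then assumed to vary like the other group's pair.

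**Figure D1:**
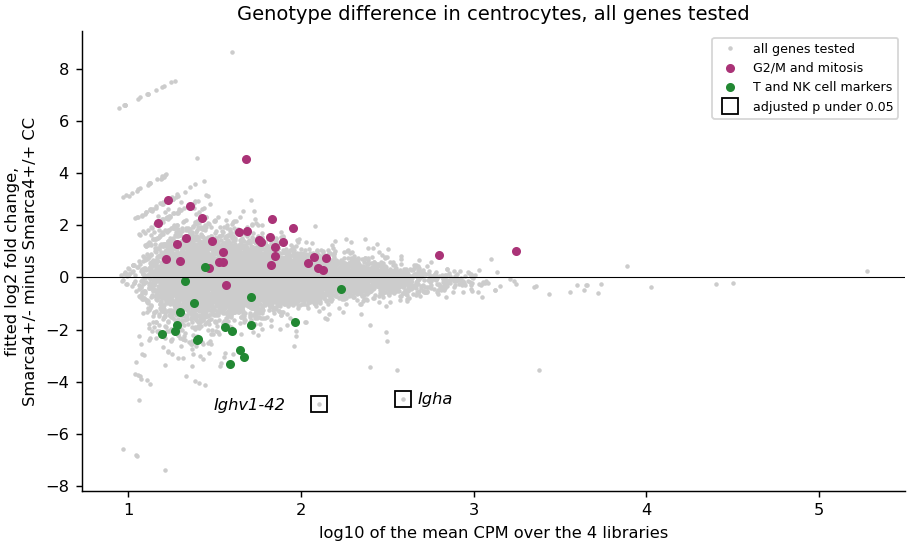
Each point is a gene tested in CC, with the log10 of its mean CPM over the 4 libraries on the x axis and the fitted log2 fold change, Smarca4+/- minus Smarca4+/+, on the y axis. Squares mark Igha and Ighv1-42, which passed the adjusted threshold, purple points are the G2/M and mitosis list, mostly above 0, and green points are T and NK cell markers, mostly below 0.

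Both genes that passed belong to the immunoglobulin heavy chain locus. Igha (ENSMUSG00000095079.6, mm10 chr12:113254830-113260236, minus strand), the constant region of IgA, had 382 and 431 counts in the Smarca4+/+ libraries and 14 and 30 in the Smarca4+/- libraries, or 745 and 762 against 20.5 and 38.4 CPM. Both Smarca4+/- libraries lay far below both Smarca4+/+ libraries. The mean of 754 ± 12.2 CPM fell to 29.5 ± 12.7 (SD, n = 2), a ratio of 25.6, and the log2 fold change was -4.65, SE 0.36, adjusted p = 0.00127. Over 16 alternative settings its log2 fold change ran from -5.19 to -4.28 and its adjusted p was at most 0.0175. In bulk RNA, fewer cells of a type and less RNA per cell cannot be told apart.

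Ighv1-42 (ENSMUSG00000094652.2, mm10 chr12:114937113-114937544, minus strand) is 1 of the variable segments of the heavy chain locus. It had 110 and 156 counts in the Smarca4+/+ libraries and 6 and 6 in the Smarca4+/- libraries, or 215 and 276 against 8.78 and 7.69 CPM. The few Smarca4+/- counts lay far below those of Smarca4+/+, with a log2 fold change of -4.87, SE 0.45, and an adjusted p of 0.00374. Under limma-voom its adjusted p was 0.42, above the threshold. Variable segments are alike in sequence, so reads may have been split or lost between them. Of 348 variable segments in the table only 18 had enough counts to be tested, 7 of them only through the Smarca4+/+ libraries, and 6 of the 18 had positive and 12 negative log2 fold changes.

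Of the 12 genes tested in the list of immunoglobulin constant genes, which includes Jchain, 10 had negative and 2 positive log2 fold changes. Ighg2b, of IgG2b, had 227 and 316 counts in the Smarca4+/+ libraries and 76 and 98 in the Smarca4+/- libraries (443 and 559 against 111 and 126 CPM). Its groups did not overlap, and its log2 fold change of -2.08, SE 0.29, missed the threshold with an adjusted p of 0.0853. It passed under DESeq2, limma-voom and each omission of 1 library. Ighg3, of IgG3, had 72 and 61 counts in the Smarca4+/+ libraries and 321 and 170 in the Smarca4+/- libraries, both Smarca4+/- libraries above, with a log2 fold change of 1.47, SE 0.40, and an adjusted p of 0.775. Ighg2c, of IgG2c, was at 0 in both Smarca4+/+ libraries and had 13 and 26 counts in Smarca4+/-, at least 4.79-fold higher against the floor of 6 counts over the group (adjusted p = 0.775). Ighm, of IgM and the most abundant, had 2172 and 2471 against 1631 and 2667 counts (log2 fold change -0.57, SE 0.22). In CPM it stood at 4236 and 4371 against 2388 and 3416. Ighg1, of IgG1, had 417 and 410 against 319 and 531 counts, or 813 and 725 against 467 and 680.2 CPM. For Ighm and Ighg1 the Smarca4+/- libraries were lower in CPM without overlap, by less than for Ighg2b (log2 fold change of Ighg1 -0.42, SE 0.27, adjusted p = 0.874).

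As a share of all heavy chain constant counts, Igha took 11.3% and 11.3% in Smarca4+/+ against 0.564% and 0.834% in Smarca4+/-. The Ighg3 share was 2.13% and 1.60% against 12.9% and 4.72%, and the Ighm share was 64.4% and 64.7% against 65.7% and 74.1%. These shares rest on 2483 to 3817 counts in a library. The light chain constant gene Igkc had 569 and 537 against 489 and 546 counts, or 1110 and 950 against 716 and 699 CPM. In CPM it was lower in both Smarca4+/- libraries (log2 fold change -0.54, SE 0.23). Jchain, which joins IgA and IgM units into polymers, had 150 and 114 against 157 and 149 counts, an overlapping range in CPM (log2 fold change -0.23, SE 0.31).

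Some genes of antibody-secreting cells, such as Sdc1, Tnfrsf17 and Prdm1, gave few counts. Of the plasma cell list, 14 of 20 genes were tested and none passed, with 7 positive and 7 negative log2 fold changes and summed levels of 2759.9 and 2681 against 2539 and 2978 CPM. Sdc1, which encodes the plasma cell marker CD138, had 0 and 0 against 2 and 2 counts, and Tnfrsf17 was at 0 in all 4 libraries. Prdm1, the master regulator of plasma cell fate, had 10 and 14 against 24 and 15 counts, a range that overlapped in CPM. The part of plasma cells in the Igha result was not tested beyond these values.

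**Figure D2:**
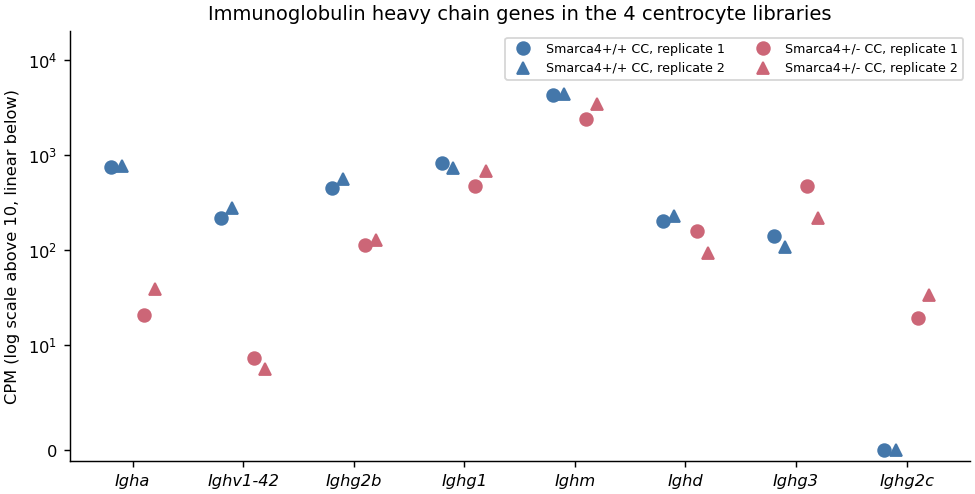
CPM of heavy chain genes in each of the 4 CC libraries, by genotype, on an axis that is logarithmic above 10 CPM and linear below. Igha, Ighv1-42 and Ighg2b lie lower in both Smarca4+/- libraries, while Ighg3 and Ighg2c lie higher in both.

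The genes of G2 and mitosis stood higher in Smarca4+/- CC as a list, although none passed alone. Of 34 genes, 33 were tested, and 32 had positive log2 fold changes. For 24 of them both Smarca4+/- libraries were above both Smarca4+/+ libraries (19.2% of all genes), and 12 had an unadjusted p under 0.05 (3.17% of all genes). Their summed level was 2740.4 and 2818 against 4452 and 6685 CPM. The median log2 fold change was 1.19 against 0.01 for all genes. Since 15 members had enough counts only through the Smarca4+/- libraries, the list was also taken with a filter that ignores the groups, a mean over the 4 libraries of 32.6 CPM or more. There 22 of 23 were positive and the median was 0.99, against -0.02 for all genes so filtered. Without Smarca4+/- replicate 2, the library with the highest sum, the median of the tested members was 0.71.

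Mki67, which encodes the proliferation antigen Ki-67, had the highest counts of the list, with 632 and 628 counts in the Smarca4+/+ libraries and 1331 and 2171 in the Smarca4+/- libraries, or 1233 and 1111 against 1949 and 2781 CPM. Both Smarca4+/- libraries were above both Smarca4+/+ libraries (log2 fold change 1.01, SE 0.24, adjusted p = 0.770). Foxm1, a transcription factor that drives the mitotic programme, had 8 and 18 counts in the Smarca4+/+ libraries and 64 and 104 in the Smarca4+/- libraries (15.6 and 31.8 against 93.7 and 133 CPM). It was again higher in both Smarca4+/- libraries (log2 fold change 2.24, SE 0.55, adjusted p = 0.770).

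Anln encodes anillin, the scaffold of the contractile ring in cytokinesis, and had 4 and 0 counts in the Smarca4+/+ libraries and 46 and 92 in the Smarca4+/- libraries. The Smarca4+/+ sum was under the floor of 6 counts, so the size of the fitted log2 fold change of 4.55, SE 0.96 (adjusted p = 0.770) depends on the prior count and is no bound. Ncapd2, a subunit of condensin, had 101 and 70 counts in the Smarca4+/+ libraries and 242 and 340 in the Smarca4+/- libraries (log2 fold change 1.30, SE 0.32, adjusted p = 0.770). Hmmr, a spindle protein, had 10 and 8 counts in the Smarca4+/+ libraries and 38 and 26 in the Smarca4+/- libraries and its groups did not overlap (log2 fold change 1.39, SE 0.76). Top2a, the topoisomerase of chromosome condensation, had 220 and 270 counts in the Smarca4+/+ libraries and 482 and 722 in the Smarca4+/- libraries (log2 fold change 0.85, SE 0.25). Ube2c, which helps to start anaphase, was the 1 member with a negative log2 fold change.

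Promoters of mitotic genes are known for the CHR element, which binds the DREAM and MMB-FOXM1 complexes, and for the CCAAT box, which binds NF-Y. The 250 bases upstream of the annotated start (RefSeq, GRCm38.p6) were searched for CHR as TTTGAA or TTCGAA and for CCAAT, both on either strand. Mki67, Hmmr and Anln are shown as the list members that were named by rule and had a promoter window. Capitals mark the motif letters, a CCAAT box on the other strand reads ATTGG, and each line gives the 200 bases before the start, 5′ to 3′ on the gene's strand. They lie at mm10 chr7:135716380-135716579, chr11:40733438-40733637 and chr9:22389207-22389406, all on the minus strand.
Mki67: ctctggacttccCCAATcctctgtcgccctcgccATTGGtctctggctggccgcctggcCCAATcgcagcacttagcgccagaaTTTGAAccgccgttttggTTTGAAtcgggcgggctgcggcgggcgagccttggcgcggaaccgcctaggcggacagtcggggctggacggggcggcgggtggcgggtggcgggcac
Hmmr: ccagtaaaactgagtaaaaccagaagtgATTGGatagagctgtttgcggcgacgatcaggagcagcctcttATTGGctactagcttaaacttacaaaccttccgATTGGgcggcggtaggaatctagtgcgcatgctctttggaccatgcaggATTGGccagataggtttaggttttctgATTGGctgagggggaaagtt
Anln: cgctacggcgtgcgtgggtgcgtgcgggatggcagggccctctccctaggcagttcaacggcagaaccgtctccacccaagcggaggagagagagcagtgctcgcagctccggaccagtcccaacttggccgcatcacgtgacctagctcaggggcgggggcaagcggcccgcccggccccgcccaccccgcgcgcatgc

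The Mki67 stretch held 2 CHR and 3 CCAAT matches, the Hmmr stretch 5 CCAAT matches and no CHR match, and the Anln stretch neither. Of the 33 tested members, 28 had a promoter window in the RefSeq table. CHR was found in 9 of them (32.1%), CCAAT in 22 (78.6%) and both in 8 (28.6%). Among the 5932 genes tested in CC that had a window the shares were 12.1%, 36.7% and 4.9%, and among all 27025 genes with a window 17.4%, 34.5% and 6.2%. A match describes these letters only and is not evidence of binding.

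Histone genes of S phase stood the same way. Of 70 replication-dependent histone genes, 46 were tested and none passed. Log2 fold changes were positive in 40, and 10 had an unadjusted p under 0.05, all higher (3.17% of all genes). The median was 0.77 and the summed level 2079 and 2588 against 3483 and 4919 CPM. With 12 members tested only through Smarca4+/-, the filter on the mean left 37 genes, 32 of them positive, at a median of 0.76. Hist1h1e, a linker histone, had 60 and 44 counts in the Smarca4+/+ libraries and 185 and 208 in the Smarca4+/- libraries, with no overlap (log2 fold change 1.46, SE 0.33, adjusted p = 0.770). Hist1h2bb had 16 and 22 against 64 and 112 counts and Hist1h2ab 16 and 26 against 74 and 100 counts. Histone genes are near-identical within a family, so single members are uncertain.

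For G1/S and DNA replication the difference was smaller. Of 30 genes tested, 22 were positive, the median was 0.25, and 3 had an unadjusted p under 0.05, all higher (3.17% of all genes). They were Tk1, thymidine kinase, at 11.7 and 35.4 against 77.6 and 114 CPM, Rrm2, a subunit of ribonucleotide reductase, at 54.6 and 88.4 against 143 and 161 CPM, and E2f8, an S phase repressor of E2F targets, at 31.2 and 81.4 against 152 and 109 CPM. Among hypermutation and DNA repair genes, 19 of 27 tested were positive and the median was 0.16. On each side 1 member had an unadjusted p under 0.05 (3.17% of all genes higher and 2.81% lower). Brca1, of homologous recombination, had 20 and 22 counts in the Smarca4+/+ libraries and 74 and 94 in the Smarca4+/- libraries, without overlap (log2 fold change 1.55, SE 0.45, adjusted p = 0.775). Apex2, an endonuclease of base excision repair, stood lower with 20 and 33 against 12 and 10 counts, also without overlap (log2 fold change -1.67, SE 0.74, adjusted p = 0.830).

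**Figure D3:**
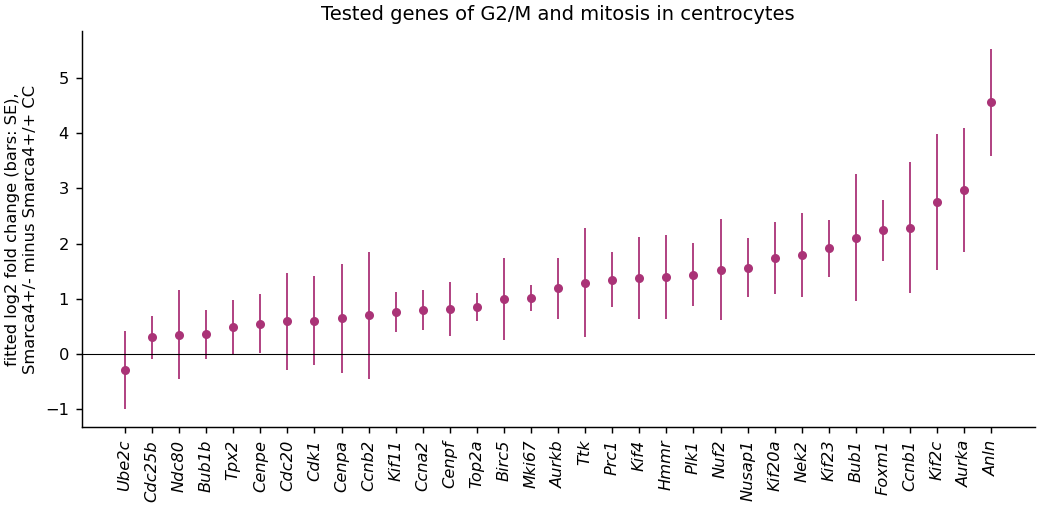
Fitted log2 fold change in CC, Smarca4+/- minus Smarca4+/+, of each of the 33 tested genes of the G2/M and mitosis list (points), with its standard error (bars), in order of size. Ube2c lies below 0, the other 32 genes lie above it, and Anln lies highest.

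Memory B cell genes mostly had lower values in Smarca4+/-. Of 21 tested, 16 had negative log2 fold changes, 4 had an unadjusted p under 0.05, all lower (2.81% of all genes), and the median was -0.50. None passed the adjusted threshold. As 4 members were tested only through Smarca4+/+, the filter on the mean was applied here too, and left 14 genes, 2 of them positive, at a median of -0.55. S1pr1, the receptor by which lymphocytes leave tissue along a gradient of sphingosine 1-phosphate, had 63 and 106 counts in the Smarca4+/+ libraries and 33 and 14 in the Smarca4+/- libraries, or 123 and 187 against 48.3 and 17.9 CPM. Both Smarca4+/- libraries were below both Smarca4+/+ libraries, replicate 2 the lower (log2 fold change -2.24, SE 0.53, adjusted p = 0.770). Zfp318, which allows IgD expression, had 61 and 59 against 26 and 40 counts. Cd38, which germinal centre B cells lose in mice, had 57 and 76 against 50 and 41 counts. S1pr1 is also made by T cells, whose summed markers were lower in both Smarca4+/- libraries (1161 and 1183 against 628 and 284 CPM), and the part of these cells in the S1pr1 values was not tested. Of the other genes fixed for this fate, Ccr6 had 10 and 9 against 16 and 6 counts and Gpr183, with 8 and 12 against 8 and 2 counts, had too few to be tested.

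Genes known to be repressed by BCL6 had a median log2 fold change of -0.23, with 7 positive and 19 negative and none past the threshold. For migration and confinement the median was -0.28, with 5 positive and 15 negative. Of these, 4 BCL6-repressed and 3 migration genes were tested only through Smarca4+/+. The filter on the mean left 19 BCL6-repressed genes, 3 positive, at a median of -0.41, and 18 migration genes, 5 positive, at a median of -0.26. S1pr2, which confines B cells to the germinal centre, had 203 and 352 against 212 and 377 CPM, and Cxcr4, the receptor that holds cells in the dark zone, had 18 and 28 against 36 and 66 counts (35.1 and 49.5 against 52.7 and 84.5 CPM). The Cxcr4 groups did not overlap, but with a log2 fold change of 0.69, SE 0.55, and an adjusted p of 0.904 the difference was within the spread.

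The transcription factors of the germinal centre were balanced, with 14 positive and 14 negative log2 fold changes among 28 tested and a median of 0.01. Bcl6 stood at 334 and 511 against 507 and 593 CPM (log2 fold change 0.38, SE 0.28), and the ranges overlapped. Irf4, needed for plasma cell fate, stood at 135 and 216 against 136 and 108 CPM, Irf8 at 451 and 559 against 473 and 628 CPM and Spi1, which encodes PU.1, at 33.2 and 74.3 against 57.1 and 70.5 CPM. Bach2 stood at 556 and 573 against 419 and 892 CPM, with Smarca4+/- replicate 2 apart from the other 3 libraries. Foxo1, the factor of the dark zone, stood at 209 and 246 against 201 and 249.8 CPM. All of these ranges overlapped, and their adjusted p lay between 0.883 and 0.996.

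Light zone and activation genes were as evenly split, 12 positive and 13 negative, with a median of -0.00102. Cd83 and Cd86, which mark centrocytes, stood at 195 and 278 against 258 and 386 CPM and 152 and 163 against 173 and 142 CPM. Myc, which marks centrocytes chosen to divide again, stood at 140.4 and 166 against 99.6 and 131 CPM (log2 fold change -0.41, SE 0.35), and Ccnd2, the cyclin of that step, at 148 and 287 against 211 and 110.2 CPM. Of the NF-kB genes, 15 of 28 were positive, with Nfkb2 at 113 and 149 against 179 and 155 CPM and the feedback inhibitor Tnfaip3 at 74.1 and 138 against 177 and 115 CPM. PU.1 and IRF factors with their partners had a median of -0.19. None of these genes passed.

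MHC class II genes stood lower in 14 of 16 tested, 8 without overlap (18.1% of all genes). The summed level was 12978 and 13391 against 8409 and 10551 CPM and the median log2 fold change -0.39. Cd74, the invariant chain that guides MHC class II to peptide, had 3183 and 3594 counts in the Smarca4+/+ libraries and 2523 and 3637 in the Smarca4+/- libraries (6208 and 6357 against 3694 and 4659 CPM). Both Smarca4+/- libraries lay below both Smarca4+/+ libraries (log2 fold change -0.59, SE 0.19, adjusted p = 0.811). H2-Eb1, a beta chain, had 737 and 765 against 512 and 720 counts (log2 fold change -0.74, SE 0.23, adjusted p = 0.800). H2-DMb1, a chain of the peptide editor, went the other way with 21 and 34 against 106 and 97 counts and no overlap (log2 fold change 1.46, SE 0.43, adjusted p = 0.775). Macrophages and dendritic cells also make these genes. The macrophage list summed to 4736 and 4779 against 5965 and 2575 CPM, and the dendritic cell list to 382 and 315 against 533 and 278 CPM. The part of these cells in the MHC class II values was not tested.

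Ribosomal protein genes stood lower in CC. Of 77 tested, 55 had negative log2 fold changes, 10 an unadjusted p under 0.05 on the lower side (2.81% of all genes) and 1 on the higher side (3.17% of all genes). For 35 there was no overlap with Smarca4+/- below (18.1% of all genes), and the median was -0.35, which was -0.19 without Smarca4+/+ replicate 2. Rpl23 had 222 and 243 counts in the Smarca4+/+ libraries and 148 and 182 in the Smarca4+/- libraries (log2 fold change -0.94, SE 0.26, adjusted p = 0.775), without overlap. Rps14 had 150 and 172 against 82 and 135 counts and Rps3a1 270 and 251 against 171 and 222 counts, also without overlap. Many of these genes have processed pseudogenes, so their counts depend on how reads with several matches were treated.

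Among other programmes, cholesterol synthesis and uptake had 13 positive of 18 tested and a median of 0.48. Sqle, the squalene epoxidase of this pathway, had 26 and 34 counts in the Smarca4+/+ libraries and 111 and 68 in the Smarca4+/- libraries without overlap (log2 fold change 1.16, SE 0.46, adjusted p = 0.827). Immediate early genes were negative in 13 of 15 (median -0.43), and interferon stimulated genes in 12 of 17 (median -0.69). Of these, 3 and 6 were tested only through Smarca4+/+, and the filter on the mean left 10 immediate early genes at a median of -0.28 and 9 interferon stimulated genes at -0.36, both nearer to 0. Medians near 0 were found for the unfolded protein response (0.05), glycolysis (0.02), the BCL2 family (-0.01) and MYC targets (-0.06). The list named dark zone genes outside the cell cycle, which nevertheless shares Hmmr with the G2/M list, had a median of 0.13. Medians were -0.12 for B cell receptor signalling, -0.13 for heat shock genes and -0.09 for histone and DNA modifiers. They were -0.08 for nuclear genes of oxidative phosphorylation and -0.27 for genes of the mitochondrial genome. None of their members passed.

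**Figure D4:**
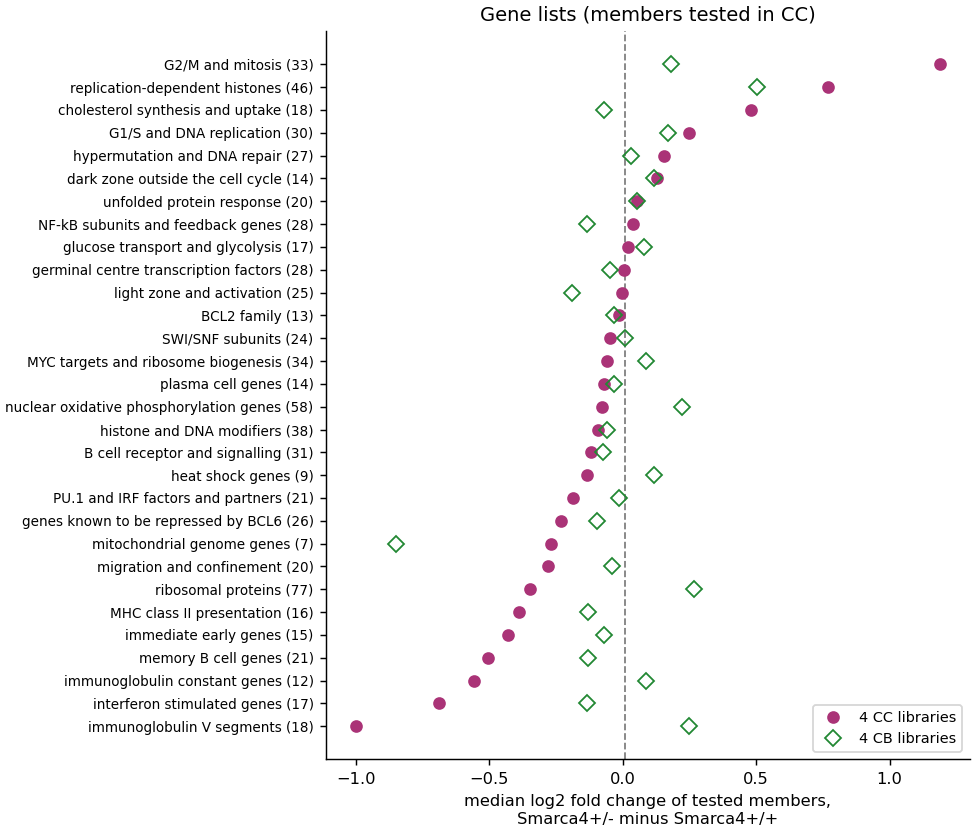
Median log2 fold change, Smarca4+/- minus Smarca4+/+, of the tested members of each gene list other than cell type markers and sex-linked genes, in CC (filled circles) and CB (open diamonds), with the number tested in CC in parentheses and a dashed line at the median of all genes tested in CC. G2/M genes have the highest CC median and variable segments the lowest of the lists shown, and for ribosomal proteins CC lies below the line and CB above it.

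The 20 smallest p also took in genes outside the lists. Ly6a, which encodes Sca-1, had 72 and 91 counts in the Smarca4+/+ libraries and 28 and 24 in the Smarca4+/- libraries (log2 fold change -2.07, SE 0.43, adjusted p = 0.770). Trim12c, of the TRIM family, had 76 and 99 against 28 and 44 counts. Both were lower in each Smarca4+/- library without overlap. Sec31a, of the COPII coat that carries cargo out of the endoplasmic reticulum, had 100 and 129 against 60 and 55 counts, and Ahnak, a large scaffold protein, had 176 and 248 against 108 and 48 counts. Aff1, of the super elongation complex, had 50 and 122 counts in the Smarca4+/+ libraries and 26 and 10 in the Smarca4+/- libraries (log2 fold change -2.63, SE 0.61, adjusted p = 0.770). On the higher side were Safb2, a nuclear matrix protein, with 39 and 55 against 163 and 169 counts, and Nus1, a subunit of the enzyme that makes dolichol, with 2 and 2 against 40 and 34 counts. None of these passed the adjusted threshold.

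Markers of other cell types differed between the libraries. For T and NK cells the sum given above was lower in both Smarca4+/- libraries. Of 25 markers, 18 were tested, 15 of them only through the Smarca4+/+ libraries, and 1 was at 0 in all 4. Trac, of the T cell receptor, had 31 and 46 counts in the Smarca4+/+ libraries and 8 and 2 in the Smarca4+/- libraries (log2 fold change -3.31, SE 0.82, adjusted p = 0.770), and Thy1 had 32 and 60 against 12 and 2 counts. Erythroid markers summed to 928 and 1001 against 706 and 273 CPM, with Hba-a1 of haemoglobin at 114 and 109 against 74 and 25 counts.

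Neutrophil and mast cell markers summed to 0 and 0 against 416 and 84.5 CPM. Ngp, a neutrophil granule gene, was at 0 in both Smarca4+/+ libraries and had 86 and 26 counts in Smarca4+/-, at least 13.7-fold higher (adjusted p = 0.667). Mpo had 0 and 0 against 64 and 0 counts and Elane 0 and 0 against 29 and 0 counts, present in Smarca4+/- replicate 1 alone. Naive follicular B cell markers summed to 1884 and 2099 against 1848 and 1319 CPM and marginal zone markers to 1605 and 1873 against 1605 and 1063 CPM. Markers of stroma (353 and 331 against 349.9 and 245 CPM), follicular dendritic cells (925 and 773 against 998 and 653 CPM), dendritic cells (382 and 315 against 533 and 278 CPM) and platelets (54.6 and 31.8 against 22.0 and 79.4 CPM) are given as sums, with 8 of 10 platelet markers at 0 in all 4 libraries. The part of these cells in the gene groups above was not tested.

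**Figure D5:**
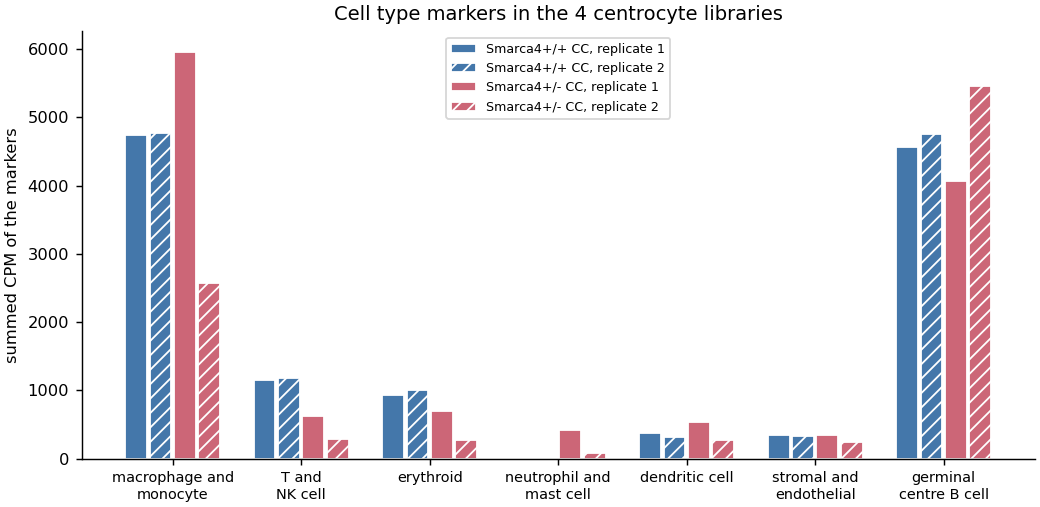
Summed CPM of marker lists in each of the 4 CC libraries, by genotype. T and NK cell markers lie lower in both Smarca4+/- libraries, neutrophil markers are at 0 in both Smarca4+/+ libraries, and germinal centre B cell markers overlap.

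The genotype difference in CC was set beside that in the deeper CB libraries, which share no library with it. In CB, 13501 genes were tested and edgeR called 0 higher and 5 lower (0.037%), the latter all encoded by the mitochondrial genome: mt-Nd1, mt-Co1, mt-Nd4, mt-Nd5 and mt-Cytb. DESeq2 called 14 higher and 11 lower in CB, and an unadjusted p under 0.05 was found for 573 genes (4.24%), 307 higher (2.27%) and 266 lower (1.97%). In CC the mitochondrial genome list summed to 55845 and 41645 against 56979 and 23726 CPM, an overlapping range. The gene mt-Co1 stood at 30694 and 24624 against 32216 and 13761 CPM in CC, overlapping, with a log2 fold change of -0.27, SE 0.32.

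Whether the genotype difference itself differed between the fractions was tested as an interaction over all 8 libraries. Of 12997 genes, edgeR called 0 and DESeq2 148 higher and 105 lower, while 1195 (9.19%) had an unadjusted p under 0.05, 723 with the more positive genotype difference in CC (5.56%) and 472 with the more negative (3.63%). In CB, Igha had 1589 and 492 counts in Smarca4+/+ and 244 and 242 in Smarca4+/-, without overlap (log2 fold change -2.08, SE 0.38, adjusted p = 0.110), and the interaction of -2.58, SE 0.71, had an adjusted p of 0.419. Ighv1-42 had 440 and 454 against 551 and 288 counts in CB, overlapping, and the interaction of -4.88, SE 0.61, had an adjusted p of 0.0733. For Ighg2b the interaction was -2.17, SE 0.30, with an adjusted p of 0.0971.

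By list, G2/M genes had a median log2 fold change of 0.18 in CB against 1.19 in CC, and 15 of 34 had an unadjusted interaction p under 0.05 in either direction (9.19% of all genes). Mki67 in CB stood at 3568 and 3879.8 against 4290.3 and 3483 CPM. Histone genes were positive in 58 of 60 in CB, with a median of 0.50. Ribosomal protein genes had opposite signs, with 79 of 83 positive in CB at a median of 0.27. Of 84 tested for the interaction, 29 had an unadjusted p under 0.05 in either direction (9.19% of all genes). No interaction of any member passed the adjusted threshold, and the lists as wholes were not tested.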

How the data were processed

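Raw counts of reads by gene were deposited for the 8 libraries, made by the authors from ribosomal RNA depleted total RNA, per the labels' protocols. FastQC, STAR, featureCounts, Subread, R 4.2.1 and the mm10 build are named in the submitters' processing notes; versions other than that of R, strand and the handling of multiply matching reads were not given in the sources used here. Gene lengths, also deposited, were not used. Without the strand setting, overlapping and antisense genes cannot be told apart.

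The 4 CC libraries were fitted alone in R 4.3.3 with edgeR 4.0.16: filterByExpr (minimum count 10, minimum total 15), TMM scaling, the quasi-likelihood F test, two-sided, and Benjamini-Hochberg adjustment over all genes tested at 0.05, on 2 residual degrees of freedom. CPM are counts scaled to an effective library size of 1000000. CB was fitted the same way, and the interaction on all 8 libraries. Alternatives used DESeq2 1.42.0, limma 3.58.1 (voom), RLE and total count scaling, other filters, thinning to 526353 counts, a replicate block and omission of each library; halved counts and a filter on the mean were chosen after seeing the data.

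Genes were named by rule: called genes; up to 4 called, or else 3 uncalled members with the smallest p, of each list; 24 fixed genes; and the 20 smallest p among genes with at least 40 counts. Ighg2c, Ighg3, Ighg1, Ighm, Igkc, Jchain, Sdc1, Tnfrsf17, Xbp1, Mzb1, Top2a, Cd3e, C1qa, Mpo, Elane, Ube2c and the genes in the closing observations were added after their values were seen. The comparison, members and lists were chosen with earlier results of these data known. The test was checked on counts simulated with the depth, means and spread of the 4 CC libraries. It recovered 6% of 100 genes changed 2-fold and 37% of 100 genes changed 4-fold. Most changes of these sizes would thus not be called.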

Additional observations from a re-analysis of the deposited data

How the results depend on the processing

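In CC, 0 genes were called higher and 2 lower. The numbers became 14 and 16 under DESeq2, 11 and 13 without a count filter, 0 lower without immunoglobulin genes, and 1 higher (Ngp) with the filter on the mean. Omission of 1 library gave 5 to 30 higher and 12 to 41 lower. In CB (0 and 5) DESeq2 gave 14 and 11, and in the interaction (0 and 0) it gave 148 and 105, with 1 lower (Ighv1-42) after CB was thinned. With a replicate block the CC calls stayed at 0 higher and 2 lower, those in CB became 39 and 22 and those of the interaction 7 and 6. The labels do not say that equal replicate numbers mark a shared mouse or batch. The deviations of equal numbers, taken over all tested genes alike, correlated at 0.01 in CC and -0.03 in CB. In every group, though, replicate 2 had the larger share at the ribosomal RNA locus and the smaller mitochondrial share. The ribosomal RNA locus shares were 18.3% and 21.6% against 18.8% and 26.7% in CC. In CB they were 23% and 31.1% against 17.4% and 29.5%. Whether this reflects a batch was not tested.

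Of 1683 values of named genes under settings that kept all libraries, 1636 kept direction and side of the threshold, 36 newly passed, 1 (Ighv1-42 under limma-voom) no longer passed and 10 changed sign, all near 0. The log2 fold change of Itgb3 was -0.0335 under limma-voom, -0.0521 thinned and -0.0602 with the block. That of Foxo1 was 6.57e-05 with at least 50 counts in 2 libraries and 0.00594 with the filter on the mean. That of Cd86 was 0.0147 under total count scaling, 0.00469 without a filter, 0.0157 with at least 50 counts, 0.0170 with halved counts and 0.0185 with the filter on the mean.
With 1 library omitted, 27 of 538 values changed sign, and the log2 fold changes ranged from -0.0314 to 1.15 for Tcf3, -0.20 to 0.96 for Bid, -0.86 to 0.15 for Bak1, -1.09 to 0.0619 for Junb, -0.25 to 0.94 for Sirpa, -0.97 to 0.69 for Itgb3 and -4.57 to 0.48 for Fn1. They ranged from -0.88 to 2.38 for Col4a1, -0.64 to 0.14 for Cr2, -1.17 to 0.85 for Clu, -0.95 to 0.14 for mt-Nd5, -0.996 to 0.22 for mt-Co1, -0.0937 to 0.32 for Irf8 and -0.22 to 0.94 for Spi1. Values went from -0.19 to 0.66 for Prdm1, -0.43 to 0.67 for Bach2, -0.18 to 0.15 for Foxo1, -0.97 to 0.10 for Ccnd2, -0.14 to 0.13 for Cd86, -0.39 to 0.54 for S1pr2 and -1.17 to 0.40 for Ccr6. The cause of these changes was not tested. Of 650 list medians, 60 changed sign. Totals of 526353 to 837558 counts limit every comparison in CC, so a difference that was not called may be one that was not detectable at this depth.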

Other observations

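Several further genes were picked out after their values were seen, so their p are descriptions only. Mir17hg, the host transcript of the miR-17-92 cluster, was at 0 in both Smarca4+/+ CC libraries and had 23 and 24 counts in Smarca4+/-, at least 5.77-fold higher against the floor. Cenpi, of the inner kinetochore, was at 0 in Smarca4+/+ and had 36 and 17 counts, at least 6.51-fold higher. Polq, the polymerase of theta-mediated end joining, had 10 and 2 against 58 and 77 counts, without overlap. Hjurp, the chaperone that loads the centromeric histone, had 110 and 108 against 240 and 403 counts (log2 fold change 1.10, SE 0.30), and Cit, a kinase of cytokinesis, had 32 and 20 against 78 and 212 counts (log2 fold change 1.99, SE 0.51). Atp2b4, a calcium pump of the plasma membrane, had 10 and 26 counts in Smarca4+/+ and 0 in both Smarca4+/- libraries, at least 8.15-fold lower. None of these passed the adjusted threshold in edgeR.

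Ciita, the co-activator that switches on MHC class II genes, had 361 and 461 against 203 and 532 counts, or 704 and 815 against 297 and 681 CPM, both Smarca4+/- libraries below, replicate 1 by far the lower (log2 fold change -0.63, SE 0.36, adjusted p = 0.871). Lars2 had 4383 and 132 against 285 and 252 counts, with Smarca4+/+ replicate 1 alone high. Xist had 590 and 434 against 1428 and 798 counts, or 1151 and 768 against 2091 and 1022 CPM, an overlapping range. Summed over 4 Y-linked genes there were 24 and 18 against 0 and 68 counts. Both Xist and Y-linked RNA were thus present in 3 libraries, and Smarca4+/- replicate 1 had no Y-linked counts. In the deeper CB libraries the Y-linked sums were 815 and 2436 against 253 and 1614 counts. The part of low depth in the 0 of Smarca4+/- CC replicate 1 was not tested.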
